A study of Mus musculus with 21 samples.

Results

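Presomitic mesoderm and Notch clock genes were followed as 10 genes, *Tbx6*, *Msgn1*, *Dll1*, *Dll3*, *Hes7*, *Lfng*, *Mesp1*, *Mesp2*, *Ripply2* and *Nrarp*, which were chosen by name among the 23983 genes of the deposited expression table. All 10 were found by their gene symbol. The study profiled cells of the mouse notochord and of the neighbouring mesoderm to look for notochord enhancers. Of its 21 samples, 9 RNA-seq libraries and 2 ChIP-seq libraries were used, and the other 10 were not used here. Each condition has 1 library, so every difference describes a pair of libraries and has no SD, no p-value and no replicate check.

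The embryonic cells descend from F1G4 mouse embryonic stem cells (C57BL/6N x SV129) that carry the BAC reporters T::H2B-Venus, Noto::H2B-mCherry and Foxa2::H2B-mTurquoise, and all 6 embryonic groups therefore share these transgenes. The labels name tetraploid complementation as the way the embryos were made, whereas the text of the study names diploid morulae, so how much of an embryo came from the host is not settled. Mesodermal progenitors (MPs) were sorted as T+/Noto-/Foxa2- cells, and notochord progenitors (NotoPs) as Noto+/T+/Foxa2+ cells, both from pooled caudal ends at E8.5 (Theiler stage 12) and E9.5 (Theiler stage 16). Trunk notochord cells were labelled T+/Noto+/Foxa2+ as well and came from trunk tissue at these stages. The sample list of the study gives a high Foxa2 gate for both trunk sorts and for E9.5 NotoPs but not for E8.5 NotoPs, a high T gate for MPs, and a wider span of somite numbers for the trunk sorts than for NotoPs, so gate and embryo age also differ between trunk notochord and NotoPs at E8.5. The cultured cells descend from a single modified F1G4 line with TRE::Foxa2-IRES-EGFP at the Rosa26 locus, a T::H2B-mCherry-T2A-irTA BAC, which drives the transactivator in cells that express *T*, and a Noto::H2B-mTurquoise BAC. NMPdiff (neuromesodermal progenitors) and MPdiff cells were sorted as T+/Noto-, and NotoPdiff cells as Noto+/T+. MPdiff and NotoPdiff cells were both treated with CHIR, a Wnt pathway agonist. Only NotoPdiff cells also received doxycycline, which switches on the *Foxa2* transgene. NMPdiff cells were taken on an earlier day of culture than MPdiff and NotoPdiff cells. The T and Foxa2 ChIP-seq libraries came from unsorted cultures enriched in NotoPdiff cells, so they also hold other cells. Notochord markers fitted the sorts: the summed FPKM (fragments counted per unit of transcript length and of mapped reads) of *Noto*, *T*, *Foxa2*, *Shh*, *Foxa1*, *Nog* and *Chrd* was 1433 and 1224 in NotoPs, 1094 and 1224 in trunk notochord, and 79.3 and 163 in MPs, at E8.5 and E9.5, and *Noto* was listed at 0 in both MP libraries.

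Paraxial mesoderm is laid down in the tail end of the embryo as presomitic mesoderm, which is cut into somites in a rhythm set by the segmentation clock. In this tissue T-box and bHLH transcription factors fix the mesodermal fate, Notch ligands on neighbouring cells signal through Notch receptors, and Notch targets such as *Hes7* and *Lfng* feed back on the pathway, so that their transcripts come and go in waves. *Mesp2* and *Ripply2* then place the boundary of the next somite. FPKM is scaled by transcript length and by library size, so levels may be compared between genes, but it keeps no read counts and the counting error of a value is not known. A bulk library also cannot tell cells that all hold little of a transcript from a few cells that hold much of it, and a pool of cycling cells gives the mean over the phases of the clock.

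T peaks lay close to the genes of mesodermal fate and of the segment boundary, and to *Hes7*. In NotoPdiff-enriched cultures, 5 of the 10 genes (*Tbx6*, *Msgn1*, *Hes7*, *Mesp1* and *Mesp2*) had the summit of a T peak within 5 kb of their start, compared with 5.36% of 19629 protein-coding genes. *Mesp1* and *Mesp2* are neighbours on chromosome 7 and share both of their T peaks, so they do not count as independent. Within 50 kb, 9 of 10 genes had a T peak, all but *Lfng*, against 26.7% of protein-coding genes. None of the 10 had a Foxa2 peak within 5 kb (0 genes, against 8.67% of protein-coding genes), and 6 had a Foxa2 peak within 50 kb (52.7% of protein-coding genes). The sequences of 101 bp centred on the strongest T summit among those that lie nearest to each of 6 genes are given here to show the T-bound DNA, read 5′ to 3′ on the strand of the gene from GRCm38 (mm10). At *Tbx6* and *Mesp2* the window touches an untranslated region, and only 30 bp of it are given. These 30 bp were placed on the T-box match nearest to the summit, with AGGTGTGA taken first. A match in them was therefore fixed by the choice, and the 30 bp of *Mesp2* do not include its summit. Capitals mark the T-box core AGGTGT or the looser form GGTGNNA, in which N is any base, on either strand.

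Msgn1 T window (chr12:11209118-11209218, - strand): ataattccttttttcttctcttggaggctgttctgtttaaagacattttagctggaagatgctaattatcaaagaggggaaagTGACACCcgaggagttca
Hes7 T window (chr11:69119015-69119115, + strand): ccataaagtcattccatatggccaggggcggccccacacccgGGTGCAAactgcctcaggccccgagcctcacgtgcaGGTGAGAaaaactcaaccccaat
Mesp1 T window (chr7:79789380-79789480, - strand): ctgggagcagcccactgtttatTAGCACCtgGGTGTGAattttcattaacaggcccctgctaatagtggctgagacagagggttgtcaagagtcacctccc
Mesp2 T window (chr7:79810838-79810867, + strand): caacctggcaggggaccaccTCACACCTtt
Tbx6 T window (chr7:126785382-126785411, + strand): cttcccctcagcTCTCACCttagtgcgaat
Ripply2 T window (chr9:86980223-86980323, + strand): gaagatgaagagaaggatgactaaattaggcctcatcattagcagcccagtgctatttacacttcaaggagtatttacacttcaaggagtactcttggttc

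The core AGGTGT was present at the summit of 11.4% of all 6875 T peaks and 7.79% of 22684 Foxa2 peaks. Among the full windows of 101 bp at the summits above, only that of *Mesp2* held it. The longer form AGGTGTGA, which contains the core, was present in 2.97% of T peaks and 0.489% of Foxa2 peaks and also lay in the *Mesp2* window. The looser form GGTGNNA, chosen after these windows had been read, was present in 36.9% of T peaks, 10.4% of Foxa2 peaks and 44.3% of 32851 promoters of 300 bp. It overlaps a core that is followed by any base and then A. The full windows of 101 bp at *Msgn1*, *Hes7*, *Mesp1*, *Mesp2* and *Tbx6* hold it. That of *Ripply2* does not, which says only that these letters are not in the window.

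*Msgn1*, a bHLH factor that drives cells from the progenitor state into presomitic mesoderm, lies at chr12:11208360-11208972 on the minus strand. Its nearest T summit was 196 bp upstream of the start, between protein-coding genes, with a fold enrichment of 23.4, a −log10 q of 153 and rank 76 of 6875 T peaks by fold enrichment. *Tbx6*, the T-box factor needed for paraxial instead of neural fate, lies at chr7:126781483-126785560 on the plus strand, and its T summit lay 3920 bp downstream of the start in the 3′ part of the gene, in annotated untranslated sequence, with a fold enrichment of 13.6 and rank 821. The peak caller thus placed stronger enrichment at the *Msgn1* promoter than at *Tbx6*.

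*Mesp1* (chr7:79792241-79793788, minus strand), a bHLH factor of early mesoderm, had the strongest T peak of the 10 genes. Its summit lay 4358 bp downstream of the start, between genes, with a fold enrichment of 28.3, a −log10 q of 473 and rank 6 of 6875. The related boundary gene *Mesp2* (chr7:79810727-79813439, plus strand) had a T summit 90 bp downstream of its start, in the untranslated region, with a fold enrichment of 19.3 and rank 228. *Ripply2* (chr9:87015537-87019917, plus strand), which encodes a corepressor that ends *Tbx6* activity at the boundary, had T summits 35264 bp and 6860 bp upstream, with fold enrichments of 24.3 and 15.6 and ranks 52 and 555. *Hes7* (chr11:69120404-69124055, plus strand), the clock repressor, had T summits 1339 bp and 2322 bp upstream with fold enrichments of 18.3 and 4.34, ranks 302 and 6421. The lower-ranked *Hes7* peak was therefore among the weakest of the list by fold enrichment, with a −log10 q of 10.3.

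The Notch ligands and modulators had weaker or more distant peaks. The T peaks within 50 kb of *Dll1* (chr17:15367354-15376872, minus strand), *Dll3* (chr7:28293553-28302238, minus strand) and *Nrarp* (chr2:25180758-25183339, plus strand) had fold enrichments of 7.91, 7.43 and 4.55, and each lay nearer to the start of another gene (*Fam120b*, *Supt5* and *Nelfb*). *Lfng* (chr5:140607320-140615545, plus strand) had no T peak within 50 kb and a Foxa2 peak 46444 bp downstream, nearest to *Ttyh3*, with a fold enrichment of 4.90. Across the 10 genes, 13 distinct T peaks lay within 50 kb, with a median fold enrichment of 13.6, and 7 of them exceeded the upper quartile of all T peaks, 10.3. Of the 6 within 5 kb, 5 exceeded it. The 7 Foxa2 peaks within 50 kb had fold enrichments from 4.00 to 8.51, and 1 of them, 24037 bp upstream of *Ripply2*, exceeded the median of all Foxa2 peaks, 7.19. No T peak of the 13 overlapped a Foxa2 peak by a base or more (0 of 13), whereas 1391 of all 6875 T peaks (20.2%) did. Each factor has 1 library, no control library is named in the sources used here, and fold enrichment is not comparable between the 2 factors.

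**Figure D1:**
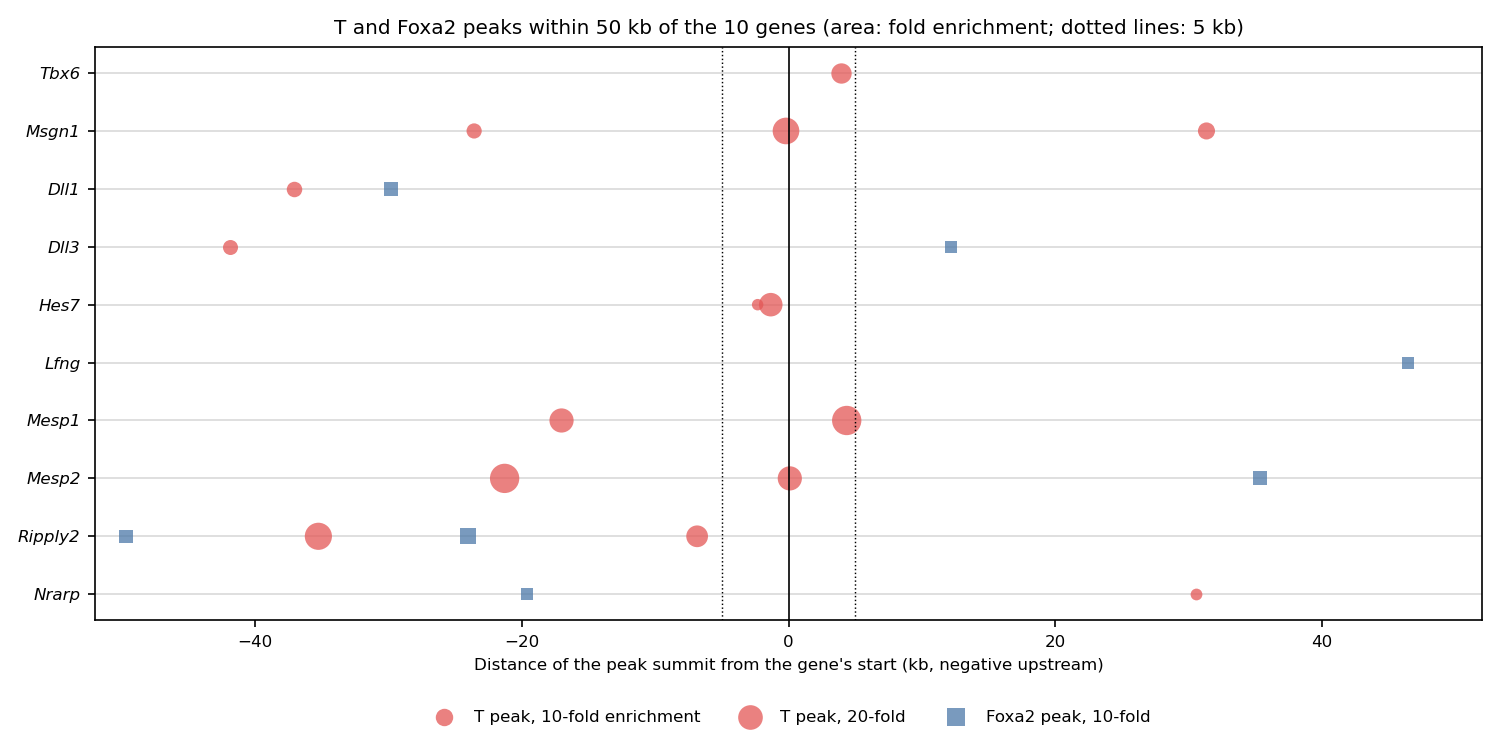
Distance in kb (x axis, negative upstream on the strand of the gene) of T peak summits (red circles) and Foxa2 peak summits (blue squares) from the start of each of the 10 genes (y axis), with symbol area proportional to fold enrichment and dotted lines at 5 kb. T peaks lie inside the dotted lines at *Tbx6*, *Msgn1*, *Hes7*, *Mesp1* and *Mesp2*, and no Foxa2 peak does; the peaks drawn for *Mesp1* and *Mesp2* are the same 2 T peaks.

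**Figure D2:**
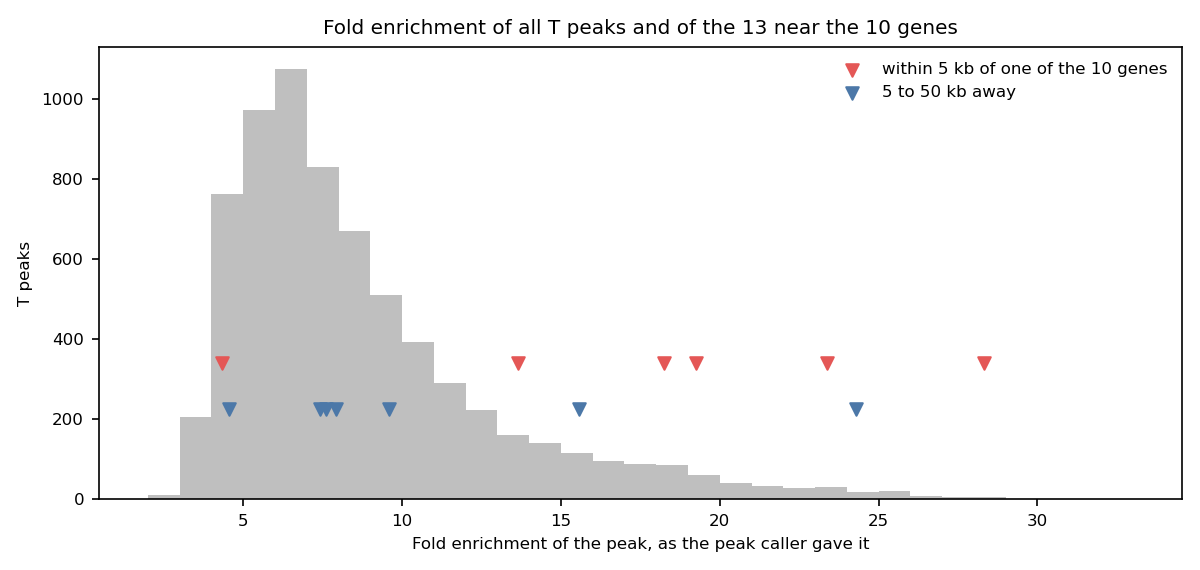
Number of T peaks (y axis) by fold enrichment in steps of 1 (x axis, grey bars, 6875 peaks), with triangles at the 13 peaks within 50 kb of the 10 genes, red for the 6 within 5 kb. Of the red triangles, 5 lie to the right of the upper quartile of all peaks at 10.3 and 1, upstream of *Hes7*, lies at 4.34.

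The caudal libraries, of MPs and NotoPs alike, held most transcripts of the 10 genes, and trunk notochord held few. The summed FPKM of the 10 genes was 179 and 520 in MPs, 292 and 206 in NotoPs and 15.5 and 15.6 in trunk notochord at E8.5 and E9.5, and 156, 270 and 181 in NMPdiff, MPdiff and NotoPdiff cells. The number of genes among the 10 that were listed at 0 was 2 and 0 in MPs, 2 and 2 in NotoPs, 6 and 8 in trunk notochord, and 0 in each culture. A value of 0 in these small libraries can be a missed transcript: of 5735 genes that reached 5 FPKM in all other embryonic libraries (5), 87 (1.52%) were listed at 0 in E8.5 MPs, and the same check gave 11 of 5424 (0.203%) and 46 of 5551 (0.829%) in trunk notochord at E8.5 and E9.5. Of the embryonic libraries, that of E8.5 MPs was made from the fewest cells. Both trunk notochord libraries were also made from fewer cells, and hold fewer mapped reads, than the NotoP libraries they are compared with. All 15 ubiquitous genes examined were above 0 in every library.

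Among the fate regulators, *Tbx6* was at 39.3 and 67.2 FPKM in MPs at E8.5 and E9.5, at 44.0 and 27.8 FPKM in NotoPs at these stages, was listed at 0 in both trunk notochord libraries, and was at 11.1, 33.2 and 21.3 FPKM in NMPdiff, MPdiff and NotoPdiff cells. *Msgn1* was at 27.5 and 123 FPKM in MPs, 20.0 and 46.6 FPKM in NotoPs, listed at 0 in both trunk libraries, and at 52.7, 25.1 and 11.2 FPKM in NMPdiff, MPdiff and NotoPdiff cells. Both genes were thus above 0 in every caudal and cultured library and listed at 0 in both trunk libraries. They differed in culture, where *Tbx6* was lowest and *Msgn1* highest in NMPdiff cells.

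The ligands followed the same outline. *Dll1*, the activating ligand of the presomitic mesoderm, was at 56.8 and 101 FPKM in MPs, 51.7 and 30.4 FPKM in NotoPs, 1.92 and 0 FPKM in trunk notochord, and 19.6, 88.2 and 41.5 FPKM in the cultures in the order NMPdiff, MPdiff, NotoPdiff. *Dll3*, a divergent ligand that lowers Notch signalling within the cell, was at 19.2 and 78.2 FPKM in MPs, 32.7 and 28.3 FPKM in NotoPs, 5.08 and 0 FPKM in trunk notochord, and 29.2, 29.8 and 35.9 FPKM in the cultures. The *Dll3* level was nearly level across the cultures, while that of *Dll1* was highest in MPdiff cells.

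Of the clock and feedback genes, *Hes7* was at 5.38 and 26.1 FPKM in MPs, 74.3 and 22.7 FPKM in NotoPs, listed at 0 in both trunk libraries, and at 2.42, 12.7 and 11.2 FPKM in the cultures. *Lfng*, a glycosyltransferase that modifies Notch receptors, was at 17.0 and 31.6 FPKM in MPs, 16.1 and 19.7 FPKM in NotoPs, 6.74 and 7.29 FPKM in trunk notochord, and 10.2, 16.1 and 12.5 FPKM in the cultures. *Nrarp*, a Notch target that limits signalling by the receptor's intracellular domain, was at 11.1 and 83.5 FPKM in MPs, 51.3 and 30.5 FPKM in NotoPs, 1.71 and 8.31 FPKM in trunk notochord, and 13.6, 47.1 and 44.0 FPKM in the cultures. *Lfng* had the narrowest range and, with *Nrarp*, was above 0 in all 9 libraries. *Hes7* was highest in E8.5 NotoPs and the other 6 of the 7 genes described so far were highest in E9.5 MPs.

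The boundary genes were low in the embryo. *Mesp1* was at 2.41 and 0.849 FPKM in MPs, listed at 0 in the 4 NotoP and trunk libraries, and at 14.9, 9.85 and 2.76 FPKM in the cultures. *Mesp2* was listed at 0 and at 1.65 FPKM in MPs, at 0 and 0.333 FPKM in NotoPs, at 0 in both trunk libraries, and at 1.76, 5.43 and 0.629 FPKM in the cultures. *Ripply2* was listed at 0 and at 6.38 FPKM in MPs, at 1.88 and 0 FPKM in NotoPs, at 0 in both trunk libraries, and at 0.357, 2.42 and 0.291 FPKM in the cultures. None of the 3 reached 10 FPKM in an embryonic library, and *Mesp1* did so only in NMPdiff cells. T peaks with fold enrichments of 28.3 and 19.3 therefore lay within 5 kb of *Mesp1* and *Mesp2*, and those of 24.3 and 15.6 lay 35264 bp and 6860 bp upstream of *Ripply2*. The 3 genes were at 2.76, 0.629 and 0.291 FPKM in sorted NotoPdiff cells, with the peaks measured in unsorted cultures. With 1 library each, it is not known which neighbours in the order of these levels differ by more than the spread between samples.

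**Figure D3:**
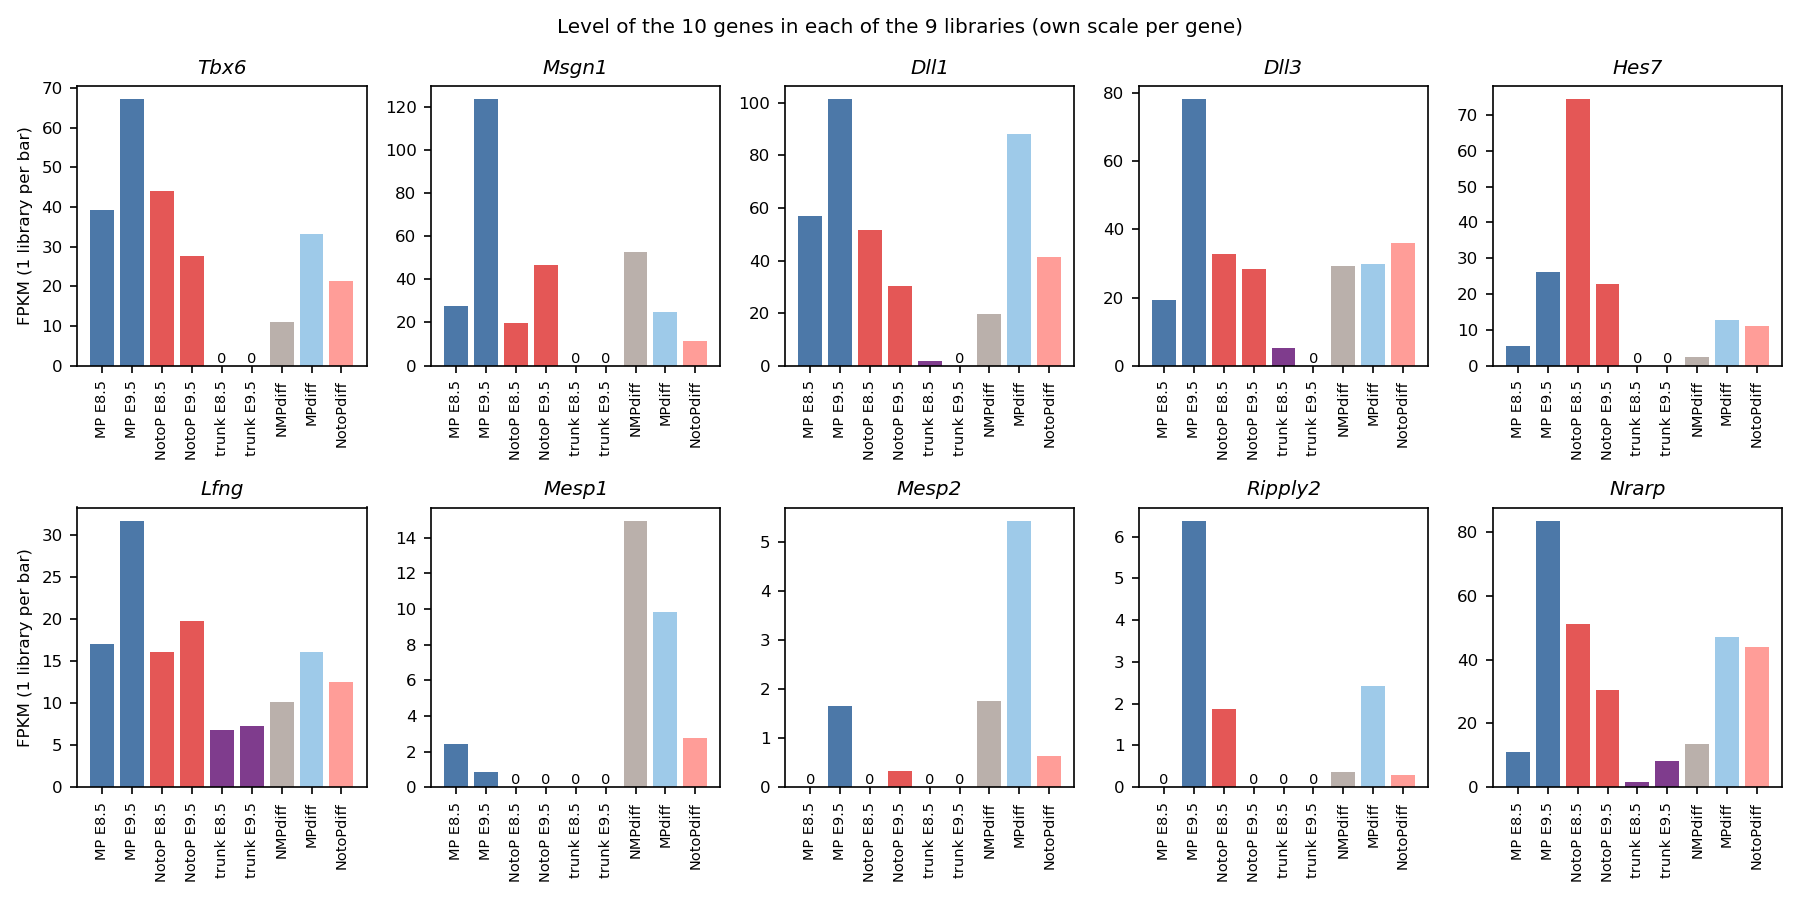
FPKM (y axis, linear, from 0, with its own scale in each panel) of the 10 genes in the 9 libraries (x axis), 1 bar per library with no error bar because each condition has 1 library; a printed 0 marks a gene listed at 0. Bars of the trunk libraries are at or near 0 for all genes but *Lfng*, *Nrarp* and, at E8.5, *Dll3* and *Dll1*.

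NotoPs were compared with MPs to see which of these genes the notochord progenitors shared with the mesoderm progenitors of the same caudal ends. At E8.5 NotoP levels of *Tbx6*, *Dll1*, *Lfng* and *Msgn1* were 112%, 91.1%, 94.5% and 72.7% of MP levels and that of *Dll3* was 170%, while *Hes7*, *Nrarp*, *Mesp1* and *Ripply2* stood further apart and *Mesp2* was listed at 0 in both. Ratios were computed on the log2(FPKM + 1) scale, which understates changes of low genes. At least 3-fold higher in NotoPs were 2 of the 10 genes, against 16.6% of the 11922 genes that average 1 FPKM or more. These were *Hes7*, with a log2 ratio of 3.56 (74.3 against 5.38 FPKM), and *Nrarp*, with 2.11. At least 3-fold lower was 1 gene (7.4% of all), *Mesp1*, which was listed at 0 in NotoPs. The median over the 10 genes was 0.08, beside 0.10 over all genes, and 2 and 1 of 10 genes stand close to the shares of all genes. The E8.5 MP library is the one with the most genes listed at 0. Against the E9.5 MP library instead, 0 of the 10 were at least 3-fold higher in E8.5 NotoPs.

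At E9.5 every gene was lower in NotoPs than in MPs, *Mesp1* and *Mesp2* on levels of at most 1.65 FPKM. The median log2 ratio of the 10 genes was −1.32, beside 0.02 over all genes, and 51.4% of all genes were higher in NotoPs. At least 3-fold lower were 2 genes, *Dll1* with −1.70 and *Ripply2*, listed at 0 in NotoPs, against 2.0% of all genes, and 0 were at least 3-fold higher (4.84% of all). *Dll3*, *Nrarp*, *Msgn1* and *Tbx6* lay between the 3-fold limit and no difference, with log2 ratios of −1.44, −1.42, −1.39 and −1.24, which are 36.2%, 36.6%, 37.7% and 41.4% of the MP level. *Lfng* and *Hes7* stood nearest to the MP level, with −0.65 and −0.19. So at E9.5 NotoPs still held 27.8 FPKM of *Tbx6* and 46.6 FPKM of *Msgn1*, at lower levels than MPs.

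Markers of mesoderm progenitors that are not among the 10 genes were unevenly spread in the NotoP libraries. *Pcdh8* and *Foxc2* are genes of paraxial mesoderm, and *Osr1* is a gene of lateral and intermediate mesoderm. They were at 6.26%, 9.69% and 8.08% of the MP level in E8.5 NotoPs, where *Tbx6* was at 112%. At E9.5 *Pcdh8* and *Foxc2* were at 1.37% and 8.99% of the MP level and *Osr1* was listed at 0 in NotoPs, where *Tbx6* was at 41.4%. *Cyp26a1*, which breaks down retinoic acid, was at 34.5% and 48.5% of the MP level. The signalling genes *Rspo3*, *Fgf8* and *Wnt3a* were nearer to or above it: *Rspo3* was at 220% and 93.1%, *Wnt3a* at 136% and 59.3%, and *Fgf8*, listed at 0 in E8.5 MPs, at 52.6 FPKM in E8.5 NotoPs and at 265% of the MP level at E9.5. The summed FPKM of the 7 markers was 231 and 250 in NotoPs and 190 and 311 in MPs. The part of MP cells carried along in the NotoP sort in these values was not tested.

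Trunk notochord was compared with NotoPs to see what remained of these genes in notochord cells outside the tail end. Of the 10 genes, 6 were at least 3-fold lower in trunk notochord at E8.5 and the same 6 at E9.5, *Tbx6*, *Msgn1*, *Dll1*, *Dll3*, *Hes7* and *Nrarp*, against 7.39% and 9.71% of all genes, and 0 were at least 3-fold higher (7.37% and 7.08%). *Tbx6*, *Msgn1* and *Hes7* were listed at 0 in trunk notochord at both stages. *Nrarp* had log2 ratios of −4.27 and −1.76 at E8.5 and E9.5, and in E8.5 cells *Dll1* and *Dll3* had −4.17 and −2.47. *Lfng* was the least reduced of the genes above 10 FPKM in NotoPs, with −1.14 and −1.32, or 41.9% and 36.9% of the NotoP level. The remaining 3, *Mesp1*, *Mesp2* and *Ripply2*, were at most 1.88 FPKM in NotoPs. Median log2 ratios of the 10 genes were −3.32 and −3.16, beside 0 and −0.01 over all genes, and the E9.5 median depends on the added 1 FPKM because it uses a gene listed at 0.

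Notochord markers were at 1094 and 1224 summed FPKM in trunk notochord, beside 1433 and 1224 in NotoPs, and *Noto* and *Chrd* were at least 3-fold lower than in NotoPs at both stages. The 7 mesoderm progenitor markers were together at 27.5 and 7.97 FPKM in trunk notochord, and *Fgf8* and *Wnt3a* were listed at 0 at both stages. Somite markers were at 98.6 and 53.8 summed FPKM, beside 94.4 and 80.7 in NotoPs. Of these 8 markers, 2 and 0 were at least 3-fold higher in trunk notochord and 0 were at least 3-fold lower. *Meox1*, a somite transcription factor, was at 25.9 and 14.0 FPKM in trunk notochord, with log2 ratios over NotoPs of 0.75 and −0.18. *Aldh1a2* and *Foxd1* were below the NotoP level at both stages, and *Meox2* was listed at 0 in both trunk libraries. Neural markers summed to 96.9 and 72.2 FPKM in trunk notochord and 38.2 and 30.4 FPKM in NotoPs, but *Irx3* alone gave 64.6 and 53.6 FPKM of the trunk sums, 3 and 0 of 8 markers were at least 3-fold higher, and *Pax6*, *Olig2* and *Neurog2* were listed at 0 in both trunk libraries. Gut endoderm markers were at 233 and 93.1 summed FPKM, beside 188 and 108 in NotoPs. Their part in the low levels of the 10 genes was not tested. Blood and endothelial markers were at most 6.30 summed FPKM in any library.

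**Figure D4:**
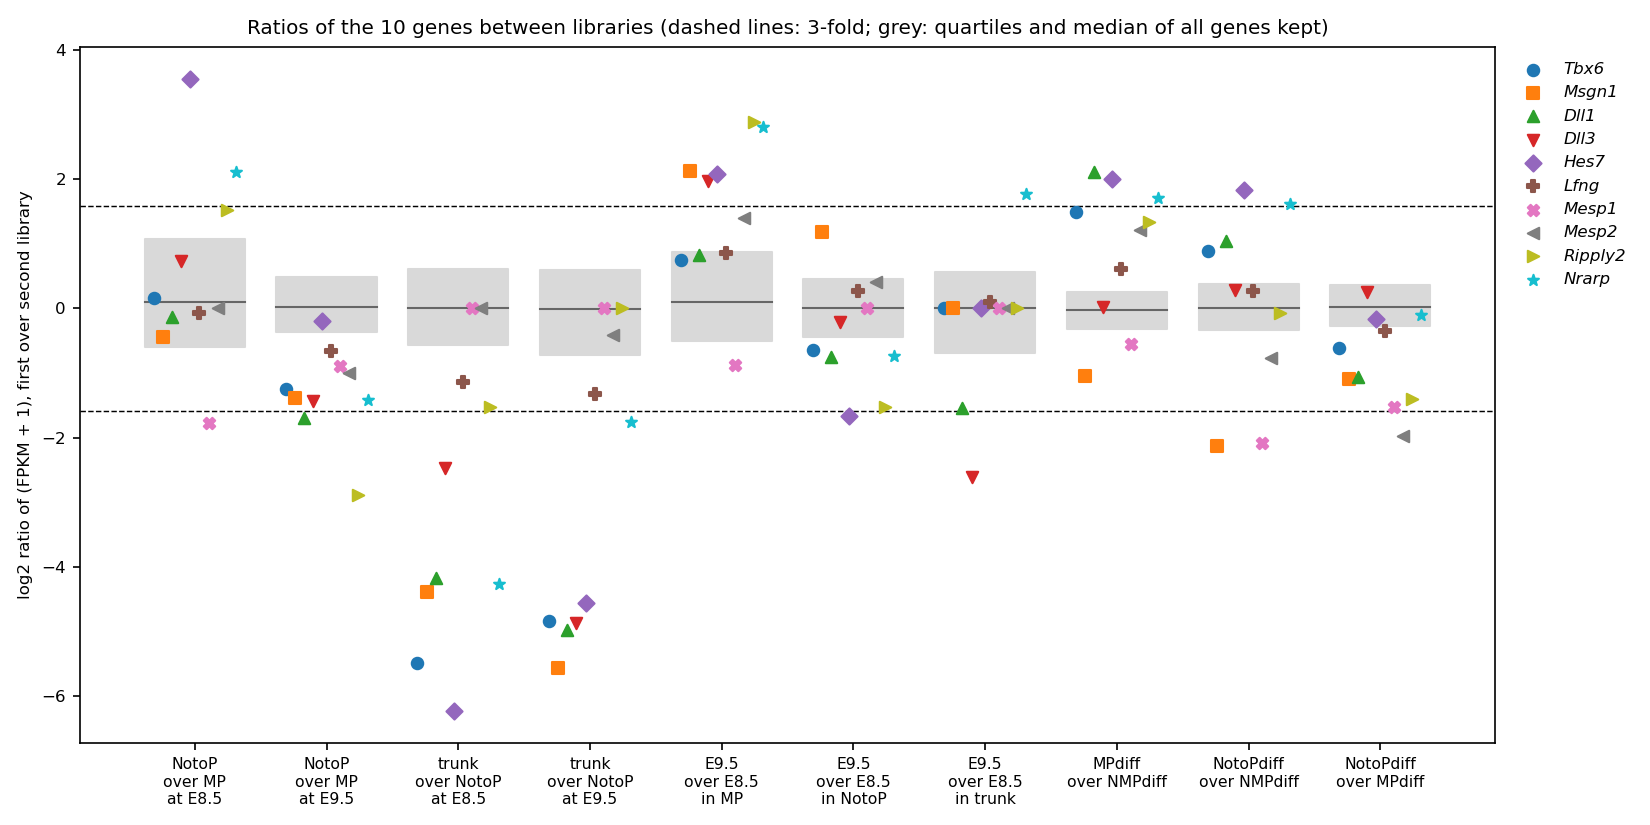
Log2 ratio of FPKM + 1 (y axis) of each of the 10 genes (symbols) in the 10 comparisons (x axis), with dashed lines at 3-fold and, in grey, the quartiles and median of the 11922 genes kept; symbols of genes listed at 0 in a library depend on the added 1 FPKM. Both trunk comparisons hold 6 genes below the lower dashed line, and all 10 genes lie below 0 in the E9.5 comparison of NotoPs with MPs.

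Between E8.5 and E9.5 most of the genes were higher in MPs, and most were lower or near level in NotoPs, a difference that was not tested. In MPs 9 of 10 genes were higher at E9.5, all but *Mesp1*, and 5 were at least 3-fold higher (11.7% of all genes), with 0 at least 3-fold lower (5.95%). *Nrarp* had a log2 ratio of 2.81, *Msgn1* 2.13, *Hes7* 2.09 and *Dll3* 1.97, and *Ripply2* was listed at 0 at E8.5. *Dll1*, *Lfng* and *Tbx6* had 0.83, 0.85 and 0.76. The median over the 10 genes was 1.69, beside 0.10 over all genes. The E8.5 MP library, with its many genes at 0, enters each of these ratios. Gut endoderm markers moved with the stage: 7 genes summed to 64.3 FPKM in E8.5 MPs and 7.58 FPKM in E9.5 MPs, and 6 of 7 were at least 3-fold lower at E9.5, such as *Epcam* with 22.7 and 0.444 FPKM, while *Sox17*, at 5.37 FPKM at E8.5, was listed at 0. The part of either in the ratios was not tested.

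In NotoPs 0 of the 10 were at least 3-fold higher at E9.5 (4.12% of all genes) and 1 was at least 3-fold lower (3.28%), *Hes7* with −1.67. *Msgn1* had 1.18 and *Lfng* 0.28. *Dll1*, *Nrarp*, *Tbx6* and *Dll3* had −0.75, −0.73, −0.64 and −0.20. The median was −0.42, beside 0 over all genes. In trunk notochord *Nrarp* was at least 3-fold higher at E9.5, with 1.78 (1 gene, 7.13% of all), and *Dll3*, listed at 0 at E9.5, was at least 3-fold lower (1 gene, 9.82% of all).

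In culture, MPdiff cells were compared with NMPdiff cells, from which they were made by further CHIR treatment. Day of culture differs in this comparison and in that of NotoPdiff with NMPdiff cells. At least 3-fold higher were 3 of the 10 genes (1.72% of all genes), *Dll1* with 2.11, *Hes7* with 2.00 and *Nrarp* with 1.72, and 0 were at least 3-fold lower (2.55%). *Tbx6*, *Ripply2* and *Mesp2* had 1.50, 1.34 and 1.22. *Msgn1* and *Mesp1* went the other way, with −1.04 and −0.56. NMPdiff cells also held 429 summed FPKM of pluripotency markers, compared with 18.6 and 17.5 in MPdiff and NotoPdiff cells. *Pou5f1* and *Tdgf1* gave 269 and 121 FPKM of that sum, and *Nanog* and *Dppa5a* 21.8 and 10.4 FPKM. *Zfp42*, *Klf4* and *Esrrb* were at 4.36, 2.25 and 0.290 FPKM. The part of what these markers reflect in the ratios was not tested.

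NotoPdiff cells, made with doxycycline as well, had 1 gene above the MPdiff level, *Dll3* with 0.26, and 9 below it. At least 3-fold lower was 1 gene (0.78% of all), *Mesp2* with −1.98, and 0 were at least 3-fold higher (2.82%). *Mesp1*, *Ripply2*, *Msgn1* and *Dll1* had −1.53, −1.41, −1.09 and −1.07, while *Tbx6*, *Lfng*, *Hes7* and *Nrarp* had −0.62, −0.34, −0.17 and −0.10. The median was −0.84, beside 0.02 over all genes. Gut endoderm markers were at 354 summed FPKM in NotoPdiff and 35.3 in MPdiff cells, with 6 of 7 at least 3-fold higher, *Sox17* at 7.46 and 0.545 FPKM among them, and *Ttr* was listed at 0 in both. Several of the 7, such as *Cldn6* and *Apela*, were also high in embryonic NotoPs, and their part in the ratios was not tested. *Tbx6* in NotoPdiff cells was at 64.2% of the MPdiff level, and *Msgn1* at 44.9%. Against NMPdiff cells, 2 genes were at least 3-fold higher in NotoPdiff cells (2.35% of all), *Hes7* with 1.83 and *Nrarp* with 1.62, and 2 were at least 3-fold lower (1.23%), *Msgn1* with −2.13 and *Mesp1* with −2.08. These 3 comparisons share their libraries, and embryonic and cultured libraries were sequenced on different instruments, so no ratio was formed between them.

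The other genes of the pathway were taken from 5 lists with 62 genes in all. In trunk notochord 17 of 62 were at least 3-fold lower than in NotoPs at each stage (7.39% and 9.71% of all genes), and 4 and 3 were at least 3-fold higher (7.37% and 7.08%), with median log2 ratios of −0.45 at both stages. The Wnt and Fgf genes of the clock and of the tail-end gradient contributed most: 10 and 11 of 16 were lower and 0 were higher. *Rspo3*, which strengthens Wnt signals, was at 146 and 144 FPKM in NotoPs and at 3.67 and 0 FPKM in trunk notochord. *Fgf8*, the gradient's growth factor, was at 52.6 and 54.4 FPKM in NotoPs and listed at 0 in both trunk libraries. The medians of this list, −2.09 and −1.99, were the closest to those of the 10 genes.

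Notch receptors and ligands other than the 10 genes were lower in 3 and 2 of 8 cases (7.39% and 9.71% of all genes). In this list 0 were higher (7.37% and 7.08% of all genes). *Notch1* was at 52.7 and 40.2 FPKM in NotoPs, compared with 12.5 and 32.1 FPKM in trunk notochord. *Notch2* and *Jag1* were chosen after their values were seen. *Notch2* was higher in trunk notochord, at 53.6 and 36.7 FPKM beside 25.9 and 17.5 FPKM in NotoPs. *Jag1* was lower there, at 8.81 and 12.5 FPKM beside 15.1 and 31.1 FPKM in NotoPs. In trunk notochord *Dll1* was at 1.92 and 0 FPKM and *Dll3* at 5.08 and 0 FPKM. The list of Hes and Hey effectors holds 8 genes, *Id1* and *Tle3* among them. Beside the same shares of all genes, 3 and 4 of the 8 were lower, *Id1* among the 4, and 0 and 1 higher. *Hes1*, a Notch-responsive repressor, was at 94.9 and 85.2 FPKM in NotoPs, compared with 24.3 and 3.28 FPKM in trunk notochord, and *Hey1* was at 43.6 and 64.5 FPKM and at 4.99 and 20.5 FPKM. Both effectors therefore stayed above 0 where *Hes7* was listed at 0.

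Of 16 genes of Notch processing and of the nuclear complex, 1 and 0 were at least 3-fold lower in trunk notochord than in NotoPs. At least 3-fold higher were 1 and 1. These counts stand near the shares of all genes, 7.39% and 9.71% lower and 7.37% and 7.08% higher. Segment boundary and somite genes had 0 of 14 lower, and 3 and 1 higher, beside the same shares of all genes. *Pax3*, an early somite transcription factor, was at 9.90 FPKM in E8.5 trunk notochord and 0.279 FPKM in E8.5 NotoPs. Between NotoPs and MPs, 11 of the 62 genes were higher and 6 lower at E8.5 (16.6% and 7.4% of all genes), and 5 were higher and 10 lower at E9.5 (4.84% and 2.0%). Between NotoPdiff and MPdiff cells 4 were higher and 4 lower (2.82% and 0.78%).

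**Figure D5:**
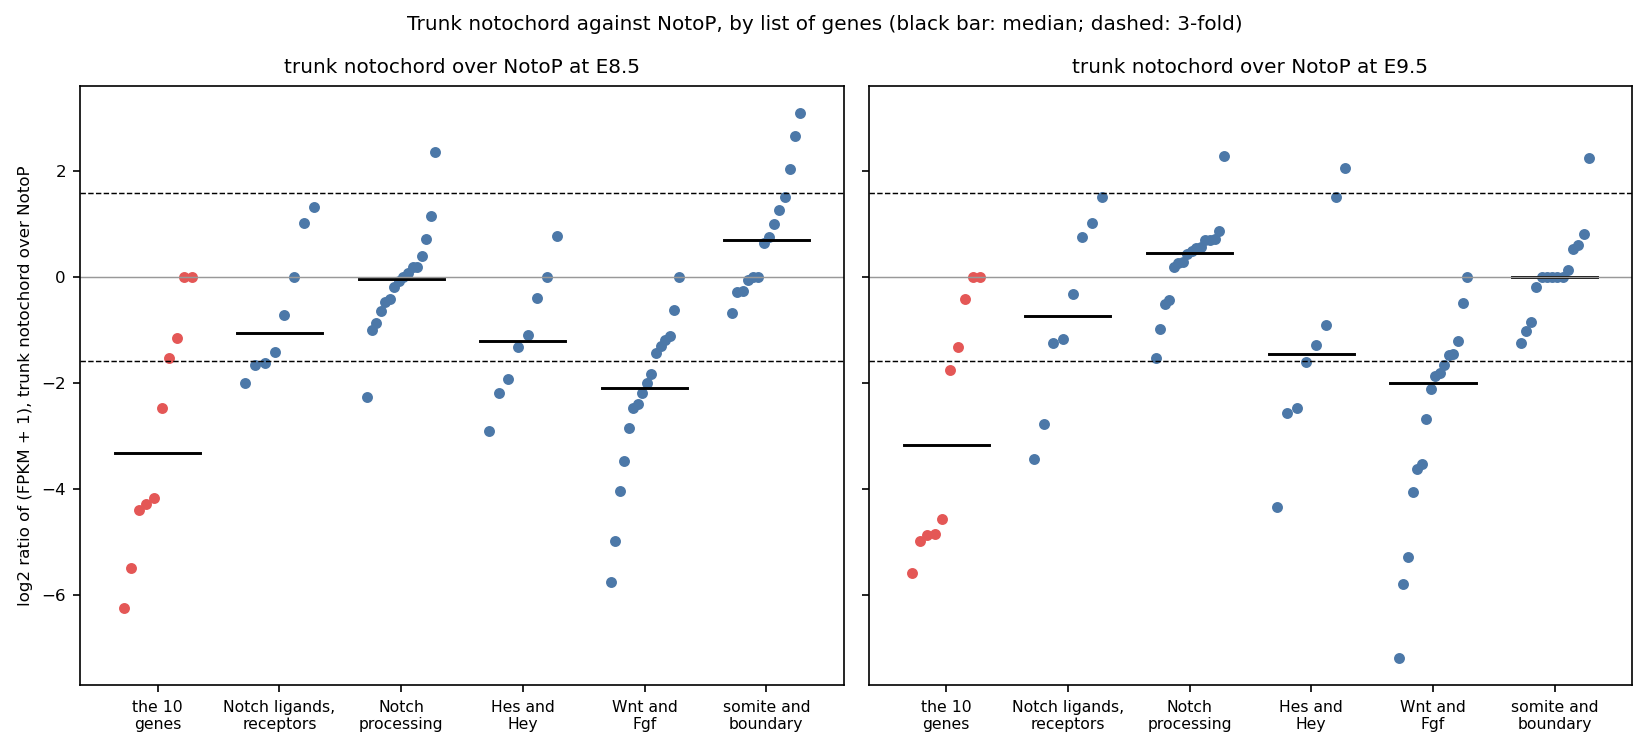
Log2 ratio of FPKM + 1, trunk notochord over NotoP (y axis), for the 10 genes (red) and the 62 genes of 5 lists (blue) at E8.5 (left) and E9.5 (right), each point 1 gene in order of its ratio, with a black bar at the median of each list and dashed lines at 3-fold. The Wnt and Fgf list, with medians of −2.09 and −1.99, lies lowest after the 10 genes, with −3.32 and −3.16.

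Likeness of profile was measured as Pearson's r of log2(FPKM + 1) over the 9 libraries, which share an instrument within the embryonic and within the cultured set and differ in depth, and is given as a description. Among the 10 genes, *Tbx6* and *Dll1* had the most similar profiles (r = 0.97), followed by *Dll1* and *Dll3* (0.94), whereas *Hes7* and *Mesp1* were least alike (−0.02). Of 8346 other genes that average 5 FPKM or more, *Pik3c2b*, *Gapvd1* and *Sall4* were most like the mean profile of the 10 (r = 0.96, 0.96 and 0.95). For *Tbx6* the closest were *Lmo2*, *Pip5k1c* and *Ubald2* (0.98, 0.98 and 0.96), and for *Msgn1* *5730457N03Rik*, *Spry4* and *Bola1* (0.98, 0.95 and 0.94). For *Dll1* they were *Ifitm1*, *Sall4* and *Lef1* (0.97 each), for *Dll3* *Casp6*, *Rexo4* and *Cactin* (0.97, 0.96 and 0.96), for *Hes7* *Ptk7*, *Tnfrsf19* and *Shf* (0.96, 0.95 and 0.94), and for *Lfng* *Fgf15*, *Nkd2* and *Sall1* (0.97, 0.97 and 0.96). *Mesp1* had *Adarb2*, *Zfp280c* and *Dancr* (0.97, 0.96 and 0.95), *Mesp2* had *Hist1h3g* and *Acaca* (0.94 each), *Nrarp* had *Ncoa6*, *Ttf2* and *Pik3c2b* (0.93, 0.91 and 0.91), and *Ripply2* had the weakest matches, *Arhgap24*, *Herc2* and *Dab2ip* (0.85, 0.85 and 0.84). *Mesp1* and *Mesp2* transcripts share an exact stretch of 42 bp at most, and *Dll1*, *Hes7* and *Nrarp* overlap annotated genes on the other strand, whose reads a stranded alignment, as the study's methods give it, keeps apart.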

How the data were processed

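RNA-seq levels are FPKM values that the authors deposited for 23983 genes after alignment to mm10, removal of duplicates by molecular identifiers and estimation with Cufflinks. Peaks were called by the authors with MACS on each ChIP-seq library at a q cutoff of 0.1; the deposited lists hold a score (not used), a fold enrichment and −log10 q for each peak. The submitters' processing notes name Bowtie 1.2.2 and 1.3.1, TopHat2 2.1.1, Cufflinks 2.2.1, MACS3 3.0.0b1 and bedtools 2.23.0. FPKM values and fold enrichments keep no read counts, so depth gives no counting interval here. All 9 expression columns were used, and 0 were left without a sample.

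Ratios are log2 of FPKM after adding 1, and the 11922 genes that average 1 FPKM or more across the 9 libraries, all 10 members among them, gave the share of all genes past 3-fold. Peak summits were assigned by distance from gene starts of the GENCODE annotation of GRCm38, counting from 1, and motifs were searched on both strands in 101 bp at each summit. RefSeq promoters (GRCm38.p6), 250 bp before to 50 bp after the start, were matched for 10 members. The members and lists were chosen with earlier results of these data known. Genes named are the members, the marker genes, up to 3 genes in each direction of each pathway list, and the 3 most alike genes per profile, of which 1 is not reported here; others are said to be chosen after their values were seen. The ratio and list calculations were tested on simulated data. Alternatives changed the scaling, the comparison library, the fold, the pseudocount, the minimum level, and the distance and strength of peaks. Python 3.11.15, pandas 2.3.3, numpy 2.4.6, samtools 1.23.1 and matplotlib 3.10.9 were used.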

Additional observations from a re-analysis of the deposited data

Results flagged for a closer look

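With 1 library per condition, none of these differences was tested. They were listed because a gene was at least 2-fold apart in opposite directions in 2 comparisons of the same kind, a minimum added here. The values are differences of 2 log2 ratios of FPKM + 1. *Nrarp* was above MPs in NotoPs at E8.5 and below them at E9.5 (difference −3.54). *Ripply2* did the same (−4.41), on levels of 1.88 against 0 FPKM and 0 against 6.38 FPKM, and so it also differed between E9.5 and E8.5 in NotoPs and in MPs by −4.41. *Hes7* was higher at E9.5 than at E8.5 in MPs and lower in NotoPs (−3.75). *Dll3* was higher at E9.5 in MPs and lower in trunk notochord, where it was listed at 0 (−4.58). *Ripply2* in NotoPs over MPs at E8.5 also went against NotoPdiff over MPdiff cells (−2.93). In all 6 of these differences the E8.5 MP library, which has the most genes listed at 0, enters 1 of the ratios.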

How the results depend on the processing

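No paired analysis was possible because each condition has 1 library and no result comes from a test. Rescaling the libraries and counting peaks by any overlap with the window left each count where it was. Dropping the minimum level could not change a count, because all 10 genes pass it, but it lowered the shares of all genes. The share at least 3-fold higher in NotoPs than in MPs at E8.5 went from 16.6% to 8.83%. That at least 3-fold lower at E9.5 went from 2.0% to 1.11%. A −log10 q of at least 3 moved only the genes with a Foxa2 peak within 50 kb, from 6 to 5. The counts of genes lower in trunk notochord stayed within 6 to 8 at E8.5 and 5 to 7 at E9.5 under all settings tried. The counts that moved most for their size are given next, and the cause was not tested. Smaller shifts of other counts are left out. With an added 0.1 FPKM, 4 genes were lower in NotoPs than in MPs at E9.5, 1 was higher and 2 were lower at E9.5 in NotoPs, 2 were lower at E9.5 in trunk notochord, and 3 were lower in NotoPdiff than in MPdiff cells. With an added 5 FPKM, 0 were lower in E8.5 NotoPs than in MPs and 1 in E9.5 NotoPs, 3 were higher at E9.5 in MPs, 0 were lower at E9.5 in NotoPs, 0 were higher and 0 lower at E9.5 in trunk notochord, 0 were lower in NotoPdiff than in MPdiff cells, 1 was higher in MPdiff than in NMPdiff cells, and 0 were higher and 1 lower in NotoPdiff than in NMPdiff cells. At 2-fold, 6 were lower in NotoPs than in MPs at E9.5, 1 was higher and 2 were lower at E9.5 in NotoPs, 2 were lower at E9.5 in trunk notochord, 5 were lower in NotoPdiff than in MPdiff cells, and 6 were higher and 1 lower in MPdiff than in NMPdiff cells. Against E9.5 MPs, 0 genes were higher in E8.5 NotoPs, and *Nrarp* changed direction, from 2.11 to −0.69. A T peak lay within 2 kb of 3 genes, a Foxa2 peak within 20 kb of 2, and within 5 kb of any annotated transcript start of 1, *Dll3*. FPKM without counts limits the reading of all levels near 0.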

Other observations

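Few genes well above 0 in NotoPs were listed at 0 in trunk notochord, as *Tbx6*, *Msgn1* and *Hes7* were. Of 5151 genes with at least 10 FPKM in both NotoP libraries, 17 (0.33%) were listed at 0 in both trunk notochord libraries. Of the 10 genes, 7 met that minimum, and 3 of them, *Tbx6*, *Msgn1* and *Hes7*, were among the 17. The other 14 include *Fgf8* and *Wnt3a*, signals of the tail end, *Cdx4*, a caudal homeobox gene, *Mixl1*, a homeobox gene of the primitive streak, and *Lmo2*, whose profile was the closest to that of *Tbx6*. With a minimum of 20 FPKM, 8 of 2982 genes (0.268%) were listed at 0 in both, *Tbx6* and *Hes7* among them. The minimums, and the genes named here that are on no list, were chosen after the values were seen.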
